A study of Mus musculus with 8 samples.

Results

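The 10 genes described here are Jak1, Jak2, Jak3, Stat3, Stat5a, Stat5b, Cish, Socs1, Socs2 and Socs3, which encode kinases, transcription factors and feedback inhibitors of cytokine signalling. They were picked by name, with earlier results of these data known but no measured value in the rule. All 10 were found among the 16119 genes of the table of counts. RNA was sequenced from 50000 DC-restricted progenitors (CDPs) per library, sorted from the bone marrow (BM) of mice whose strain is C57BL/6 in the labels and C57BL/6J in the study's methods. HFD mice (genotype label DIO, for diet-induced obese) received a diet with 60 kcal% fat, and the age-matched CF mice (label DIO-Control) one with 10 kcal% fat. The labels give 16 weeks of diet for HFD and call CF age- and diet-matched, with no number of their own. The study's text gives up to the same time on the high fat diet, and its methods use that number for the age of the purchased males. There were 4 libraries per diet, and whether each came from 1 mouse or a pool is not given in the sources used here, so the p values measure the spread between these libraries. The question asked of the 10 genes was whether their transcript levels in CDPs differed between the diets.

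Cytokine receptors without a kinase domain of their own are bound by Janus kinases (JAKs). Ligand binding lets the JAKs phosphorylate the receptor tails and then the STAT proteins, which pair, enter the nucleus and switch on genes, among them those of the SOCS family. SOCS proteins, Cish included, bind receptors or JAKs and dampen the signal as a negative feedback. In DC development, signalling through STAT3 is known to act downstream of Flt3 ligand, and STAT5 downstream of GM-CSF.

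The libraries held between 28203651 and 48409689 counts, and all 10 genes passed the filter on low counts that kept 15837 genes. The markers of the CDP sort were present in every library, with Flt3 at 88.8 to 378 CPM (counts scaled to library size) and Csf1r at 79.4 to 133 CPM. HFD replicate 1 had the lowest Flt3, with 227 to 378 CPM in the others, and the lowest Cd34 (23.4 CPM). Its Fcgr3 was the highest (55.1 CPM), and its Csf1r, Kit and Ly6a were neither. The summed level of the 6 sort markers was 310 CPM there and 443 to 627 CPM in the others, with Ly6a at 1.37 to 3.25 CPM. Libraries stood apart in other ways that touch the results below. HFD replicate 1 had a summed level of 15 neutrophil markers of 21037 CPM, against 987 to 3670 in the other HFD libraries, and CF replicate 1 had 2010 CPM against 6133 to 6745 in the other CF libraries. Non-coding genes of up to 200 nt of exon took 8.50% to 13.6% of the counts in HFD and 21.7% to 33.9% in CF. CPM were scaled by TMM factors, which lay between 1.01 and 1.13 in HFD and between 0.80 and 1.18 in CF. In bulk RNA, fewer cells of a type and less RNA per cell cannot be told apart.

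STAT dimers are known to bind the palindrome TTCNNNGAA, where N is any base, which reads the same on both strands. RefSeq promoter windows (GRCm38.p6, 250 bases before to 50 after the annotated start) were found for 9 of the 10 genes, all but Socs2. The letters occurred in 2 of these 9 genes, 2 times in Cish and 1 time in Socs3, and not in the windows of the other 7. Of all 32851 promoter windows of that length, 8.30% held the palindrome at least once and 0.457% at least 2 times. The stretches are shown because both genes are feedback inhibitors downstream of STATs, with the palindromes in capitals and each sequence on its gene's own strand. Cish is on the plus strand at chr9:107296654-107296683, and Socs3 on the minus strand at chr11:117969477-117969566.
Cish: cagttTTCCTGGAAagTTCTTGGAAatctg
Socs3: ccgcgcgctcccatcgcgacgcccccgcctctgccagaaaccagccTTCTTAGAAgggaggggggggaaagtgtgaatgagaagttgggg
In Cish the pair lay at positions 1 and 12 from the RefSeq start, in a stretch that also belongs to an exon of an annotated Cish transcript. In Socs3 the palindrome lay 154 bases before the start. A match describes the letters alone, and no binding was measured here.

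The 4 inhibitors stood far below the JAK and STAT genes, whose levels interleaved. Per kilobase of exon and averaged over the 8 libraries, Jak1 was highest (17.0 CPM per kb) and Jak2 next (15.9), followed by Stat5b (10.5), Stat3 (7.17), Jak3 (4.78) and Stat5a (4.56). The inhibitors came last on the same per-length scale, with Socs3 at 1.33, Socs1 at 0.296, Cish at 0.192 and Socs2 at 0.103 CPM per kb. Among all genes, the per-length level of Jak1 lay at percentile 89.9 and that of Socs2 at percentile 0.944. Neighbours in this order overlapped over the libraries, other than Jak2 with Stat5b and Stat5a with Socs3. The summed level in CPM was 234 ± 24.9 (SD, n = 4) in HFD and 223 ± 15.1 in CF for the 3 JAK genes, and 167 ± 15.8 and 151 ± 7.45 for the 3 STAT genes. For the 4 inhibitors together it was 6.04 ± 3.38 in HFD and 7.81 ± 3.41 in CF.

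**Figure D1:**
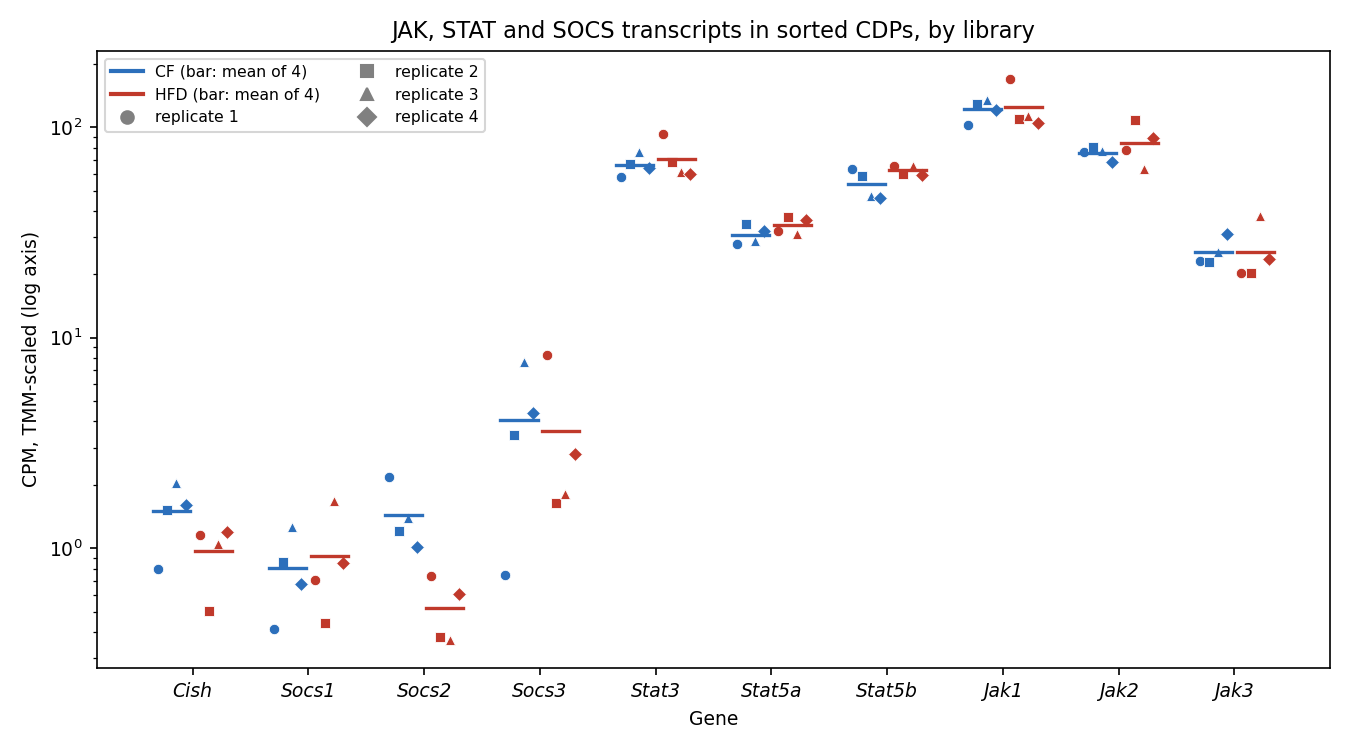
TMM-scaled CPM on a log axis of each gene in each library, with CF in blue and HFD in red, a marker shape per replicate number and a bar at the mean of the 4 libraries. Socs2 is the gene whose HFD libraries (0.367 to 0.738 CPM) all lie below its CF libraries (1.01 to 2.17 CPM).

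None of the 10 genes passed the test between diets. With edgeR's quasi-likelihood test and Benjamini-Hochberg adjustment over all genes tested, 0 of 10 had an adjusted p under 0.05, where 0.423% of all genes were called lower in HFD and 0% higher. At an unadjusted p under 0.05, 1 of 10 was lower (Socs2) and 0 were higher, against a background of 5.34% lower and 3.22% higher. The CPM of the diets did not overlap for the same single gene, Socs2, where 3.58% of all genes were lower and 2.58% higher without overlap. Estimates were above 0 for 6 genes and below 0 for 4, with a median log2 fold change of 0.06, and the median over all genes tested was 0.05. All 10 are protein-coding, and among the 11775 protein-coding genes tested the shares were smaller, with 1.67% lower at an unadjusted p under 0.05 and 0.951% lower without overlap. By DESeq2, 1 of the 10 was called (Socs2, lower), where it called 3.18% of all genes lower and 0.404% higher. By limma voom 0 of the 10 were called, where it called 0.442% of all genes lower and 0% higher.

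**Figure D2:**
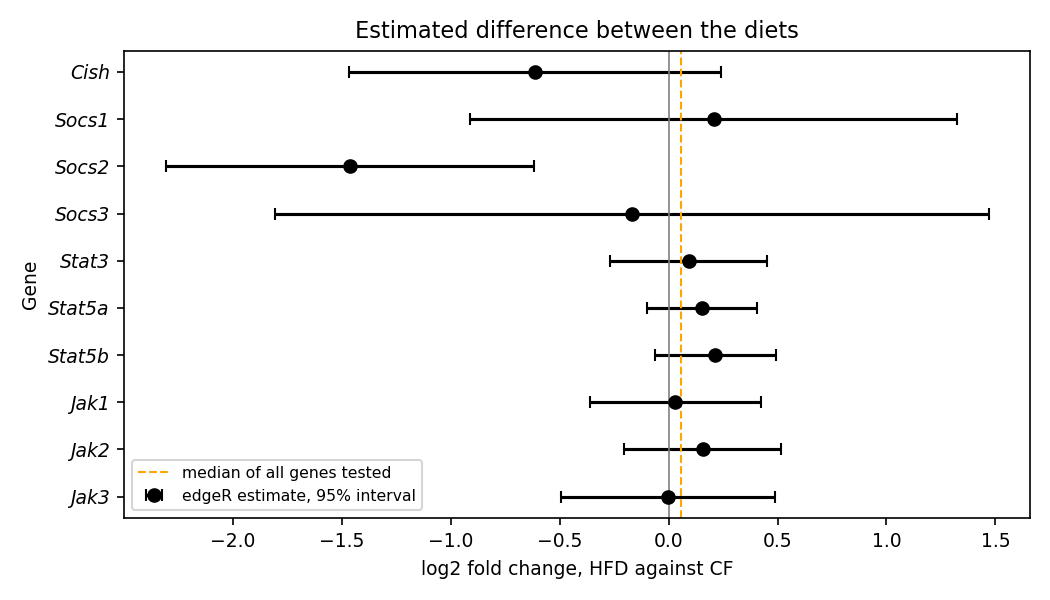
Log2 fold change of HFD against CF for each gene, with points at the edgeR estimate, bars for the 95% interval and a dashed line at the median of all genes tested. The interval of Socs2 (−2.31 to −0.62) is the one of the 10 that does not hold 0, and the intervals of the JAK and STAT genes are narrower than those of the 4 inhibitors.

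Socs2 was lower in every HFD library than in every CF library, 2.76-fold in the means, but missed the adjusted threshold. Socs2 (ENSMUSG00000020027, chr10:95385362-95417180 of GRCm38, minus strand) encodes an inhibitor best known for restraining growth hormone signalling through STAT5. Its HFD libraries had 0.738, 0.378, 0.367 and 0.607 CPM, and its CF libraries 2.17, 1.21, 1.39 and 1.01 CPM. The highest HFD library thus lay below the lowest CF library, and CF replicate 1 was the highest of all. The means were 0.522 ± 0.181 CPM (SD, n = 4) and 1.44 ± 0.507 CPM, and the log2 fold change was −1.46 with a standard error of 0.37 and a 95% interval from −2.31 to −0.62 (edgeR, unadjusted p = 0.0036, adjusted p = 0.16). It ranked 358 among the 15837 genes by p.

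The Socs2 values rest on few reads. Its counts were 23, 12, 14 and 25 in HFD and 84, 38, 44 and 39 in CF. Counting error alone would give a coefficient of variation of 23.3% among the HFD libraries and 14.0% among the CF libraries, and the observed ones were 34.7% and 35.1%. The exact Poisson 95% interval, which covers counting error only, ran from 0.468 to 1.11 CPM in HFD replicate 1 and from 0.721 to 1.39 CPM in CF replicate 4, so that the 2 nearest libraries of the 2 diets overlapped within counting error. Of the 75-base stretches in the exons of Socs2, 3.13% also occurred in the gene model Gm9847, and reads that map to both would not be counted as unique.

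The direction of Socs2 was the same in all 19 alternative settings, with estimates from −1.67 without HFD replicate 1 to −1.20 without CF replicate 1. The unadjusted p was under 0.05 in 20 of 20 settings, the reported one included, and the adjusted p ran from 0.017 to 0.80. DESeq2 gave −1.49 with an adjusted p of 0.017, the one setting that called it. The share of short non-coding genes moved with the diet as Socs2 did. Scaled to the counts of protein-coding genes alone, which this share does not enter, Socs2 was at 1.79, 1.02, 1.03 and 1.65 CPM in HFD and at 6.13, 3.12, 3.69 and 2.85 CPM in CF, again without overlap. Over the 8 libraries, which differ by diet, its log2 level had a Pearson r of 0.85 with the log2 share of short non-coding counts. The r of the deviations from the diet means was 0.25, and the part of that share in the result was not tested. In other members that r of the deviations was larger in size, at −0.83 for Jak1, −0.77 for Stat3 and −0.76 for Socs3.

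Socs2 also moved with the heat shock genes, which respond to cell stress and handling. Of the 11 tested, 6 had estimates above 0 and 5 below, and 2 were called, both lower, against 0.423% of all genes. These were Hspa1a and Hspa1b, named after their values were seen. None of the 11 was at 0 in any library, and their summed level was 1297 to 2066 CPM in HFD and 1871 to 2267 CPM in CF. Hspa1a was at −3.04 and Hspa1b at −2.97 on the log2 scale (edgeR, adjusted p = 0.035 for both). Dnajb1, also named after its values were seen, was lower without overlap at −0.94 (adjusted p = 0.097). The most abundant, Hsp90ab1 and Hspa8, had estimates of 0.00073 and 0.024 on the log2 scale. Across the 8 libraries, the Pearson r of Socs2 with the mean log2 level of the list was 0.94, and that of the deviations from the diet means was 0.82. With the 15 immediate early genes, described further on, its r was 0.69, and 0.25 for the deviations. The part of handling in the Socs2 result was not tested.

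The genes whose log2 CPM followed Socs2 most closely over the 8 libraries were non-coding, 3 of them snRNAs and 2 lincRNAs. They were Gm22418 (snRNA, r = 0.98), Gm28874 (lincRNA, r = 0.98), Gm6297 (lincRNA, r = 0.97), Gm24705 (snRNA, r = 0.97) and Gm22580 (snRNA, r = 0.97). In all, 112 genes had an r over 0.9 with Socs2. These correlations describe 8 libraries that share the diet contrast and the scaling.

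Cish was the other feedback gene of the STAT5 branch, and its estimate was also below 0, within the spread of the libraries. Cish (ENSMUSG00000032578, chr9:107296026-107302784, plus strand) encodes the founding member of the SOCS family, a docking competitor of STAT5 on receptors. Its HFD libraries had 1.16, 0.503, 1.05 and 1.19 CPM, and its CF libraries 0.801, 1.53, 2.05 and 1.61 CPM. CF replicate 1 lay inside the HFD range and the other 3 CF libraries above it. The log2 fold change was −0.61 (standard error 0.38, 95% interval −1.47 to 0.24, edgeR adjusted p = 0.77). Its counts of 16 to 65 per library and a shared stretch of 479 exon bases with Gm17041 on the opposite strand limit this value.

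Socs1 and Socs3 varied more within a diet than between the diets. Socs1 (ENSMUSG00000038037, chr16:10782240-10785536, minus strand) encodes an inhibitor of JAK kinase activity that restrains interferon signalling. It had 0.706, 0.440, 1.68 and 0.849 CPM in HFD and 0.413, 0.859, 1.26 and 0.676 CPM in CF, from 14 to 64 counts. The ranges overlapped nearly in full, and the log2 fold change of 0.21 had a 95% interval from −0.91 to 1.32 (edgeR, adjusted p = 0.96). Without HFD replicate 3, its highest library, the estimate was −0.26.

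Socs3 (ENSMUSG00000053113, chr11:117966079-117970047, minus strand) encodes the inhibitor that binds gp130 and the G-CSF receptor and limits STAT3. It had 8.25, 1.64, 1.81 and 2.79 CPM in HFD and 0.749, 3.44, 7.68 and 4.39 CPM in CF. HFD replicate 1 was the highest of all 8 libraries and CF replicate 1 the lowest, and these lay outside the range of the 3 remaining libraries of their diets. Its estimate was −0.17 on the log2 scale (95% interval −1.80 to 1.47, standard error 0.72, edgeR adjusted p = 0.98). Its within-diet SD of 1.23 on the log2 scale lay at percentile 95.7 of all genes, whose median was 0.31, and its 29 to 257 counts per library put counting error at 9.01% in HFD against an observed variation of 86.3%.

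The Socs3 estimate changed with the libraries used. Without HFD replicate 1 it was −0.96 and without CF replicate 1 it was −0.52. It was above 0 without HFD replicate 2 (0.073), HFD replicate 3 (0.055) or CF replicate 3 (0.34). Without both HFD replicate 1 and CF replicate 1 it was −1.31 (edgeR, unadjusted p = 0.0058, adjusted p = 0.11). In this last fit Cish was at −0.91 (adjusted p = 0.30) and Socs2 at −1.40 (adjusted p = 0.13), while Socs1 was at 0.098 (adjusted p = 0.95), none of the 4 called. HFD replicate 1 and CF replicate 1 were left out by their neutrophil levels. Socs3 moved with those levels (Pearson r = 0.71 over the 8 libraries), and these were its highest and lowest libraries. Leaving both out therefore had to lower its estimate, so this fit is no separate support for a difference.

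**Figure D3:**
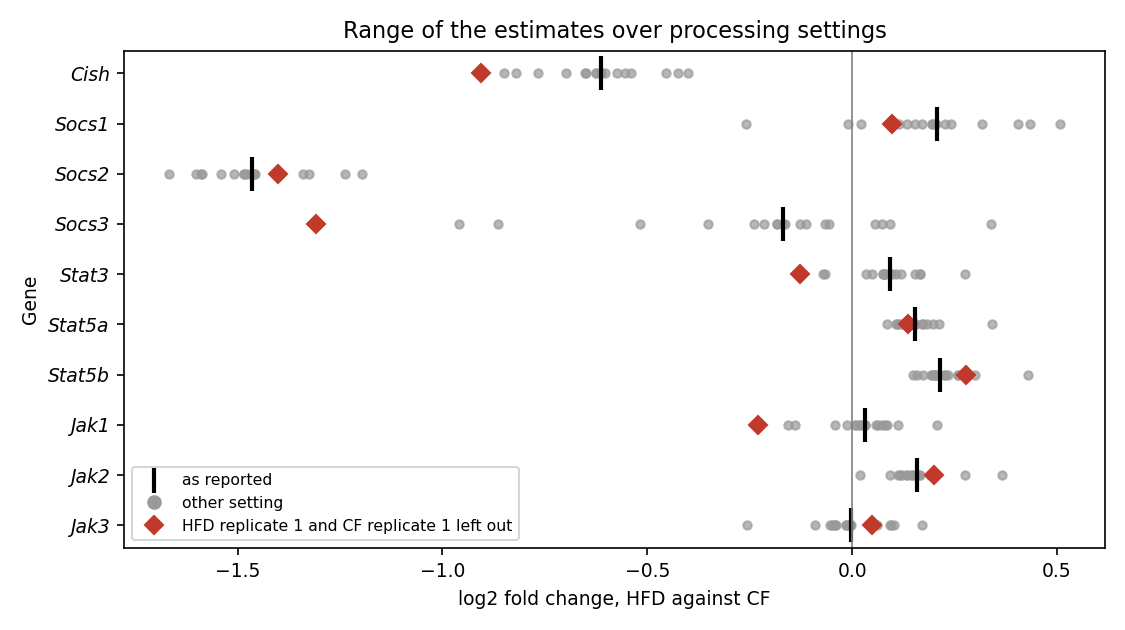
Log2 fold change of HFD against CF for each gene under the reported setting (black bar), the other settings (grey) and the fit without HFD replicate 1 and CF replicate 1 (red). Socs2 and Cish lie below 0 throughout, Stat5a, Stat5b and Jak2 above 0 throughout, and Socs3 spreads from −1.31 to 0.34.

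The STAT genes were measured with 912 to 2884 counts per library and had estimates of 0.09 to 0.21 on the log2 scale. Stat5b (ENSMUSG00000020919, chr11:100780731-100850724, minus strand) and Stat5a (ENSMUSG00000004043, chr11:100859351-100885169, plus strand) encode the paired STAT5 proteins that act behind GM-CSF, growth hormone and many interleukins. Stat5b had 65.1, 60.0, 65.2 and 59.3 CPM in HFD and 63.1, 58.5, 47.4 and 46.2 CPM in CF, where replicates 3 and 4 of CF were the lowest. Its log2 fold change was 0.21 with a 95% interval from −0.06 to 0.49 (edgeR, adjusted p = 0.74). Stat5a had 32.2, 37.6, 31.0 and 36.3 CPM in HFD and 28.0, 34.5, 28.7 and 32.0 CPM in CF. These ranges overlapped, and the log2 fold change was 0.15 with a 95% interval from −0.10 to 0.41 (edgeR, adjusted p = 0.81). The within-diet SD of Stat5a (0.14 on the log2 scale) was at percentile 10.9 of all genes, and both STAT5 estimates were above 0 in all 19 alternative settings. Stat5b moved with the B cell markers of a library, with a Pearson r of 0.80 over the 8 libraries and 0.65 for the deviations from the diet means. Of these 12 markers, led by Rag1 and Blnk and none at 0 in any library, 11 had estimates above 0 and 1 below. Among them 0 were called, and 5 were above 0 at an unadjusted p under 0.05 (edgeR, against 3.22% of all genes). Their summed level was 156 to 295 CPM in HFD and 129 to 208 CPM in CF, and their part in the level of Stat5b was not tested. The paralogs share 5.12% of the 75-base stretches of Stat5a and 6.99% of those of Stat5b, which unique mapping leaves uncounted in both.

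Stat3 (ENSMUSG00000004040, chr11:100885098-100939540, minus strand) encodes the factor behind gp130, G-CSF and Flt3 ligand signals. It had 92.6, 68.2, 61.0 and 60.0 CPM in HFD and 57.9, 66.9, 75.9 and 63.7 CPM in CF. HFD replicate 1 was the highest library and CF replicate 1 the lowest, as for Socs3. The log2 fold change was 0.09 with a 95% interval from −0.27 to 0.45 (edgeR, adjusted p = 0.94), and it was −0.13 without those 2 libraries. Stat3 and Stat5a overlap by 72 exon bases on opposite strands, and whether the counting used the strand is not given in the sources used here.

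The 3 kinase genes overlapped between the diets, and Jak1 and Jak2 were the most abundant of the 10 genes. Jak2 (ENSMUSG00000024789, chr19:29251828-29313080, plus strand) encodes the kinase of the GM-CSF, erythropoietin and growth hormone receptors. It had 78.1, 108, 63.1 and 88.8 CPM in HFD and 76.6, 80.9, 76.9 and 68.4 CPM in CF. The HFD libraries thus lay on both sides of the CF range, and the log2 fold change was 0.16 with a 95% interval from −0.20 to 0.52 (edgeR, adjusted p = 0.88). Without HFD replicate 2, the highest library for Jak2, it was 0.018.

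Jak1 (ENSMUSG00000028530, chr4:101152367-101265282, minus strand) encodes the kinase shared by gp130, interferon and common gamma chain receptors. It had 169.8, 109.9, 113 and 104 CPM in HFD and 103, 128, 134 and 121 CPM in CF. HFD replicate 1 stood above the other 7 libraries. The log2 fold change was 0.03 with a 95% interval from −0.36 to 0.42 (edgeR, adjusted p = 0.98), and it was −0.16 without HFD replicate 1.

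Jak3 (ENSMUSG00000031805, chr8:71676296-71690575, plus strand) encodes the partner kinase of the common gamma chain. It had 20.2, 20.4, 37.9 and 23.8 CPM in HFD and 23.2, 22.9, 25.5 and 31.0 CPM in CF. HFD replicate 3 was its highest library, and the ranges overlapped. The log2 fold change was −0.0034 with a 95% interval from −0.49 to 0.49 (edgeR, adjusted p = 1.0). Its exons share 404 bases with Insl3 on the same strand, so reads from there cannot be assigned to one of the 2 genes. For the 3 JAK and 3 STAT genes, the widest bound of the 95% intervals was a 1.43-fold difference (Jak2), while for Socs3 it was 3.49-fold.

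Jak1, Stat3 and Socs3 moved with the neutrophil markers of a library, and with those of other lineages. All 15 markers were detected in every library, none of them at 0, and 14 had estimates above 0 and 1 below, with 0 called. S100a8 and S100a9, the most abundant of these markers, reached 5155 and 5111 CPM in HFD replicate 1. The other HFD libraries had 245 to 901 CPM of S100a8 and 283 to 940 CPM of S100a9. In CF, S100a8 was at 539 to 1778 CPM, lowest in replicate 1. Over the 8 libraries, the log2 level of the members had a Pearson r with the mean log2 level of the list of 0.90 for Jak1, 0.86 for Stat3 and 0.71 for Socs3, and of −0.12 for Stat5a and −0.04 for Jak2. HFD replicate 1 is the extreme point in each of the first 3. Other lists gave a like order, with an r of 0.92 for Jak1 and 0.91 for Stat3 with granulocyte progenitor markers, and of 0.86 for Jak1 and 0.93 for Stat3 with erythroid markers. DC markers went the other way, with an r of −0.67 for Jak1 and −0.80 for Stat3 with conventional DC markers, and of −0.62 and −0.47 with plasmacytoid DC markers. Erythroid markers were also highest in HFD replicate 1, with a summed 911 CPM against 126 to 213 in the other 7 libraries, led by Slc4a1 (245 CPM) and Car2 (186 CPM). With the neutrophil level as a covariate, the log2 fold change of Socs2 kept its sign and that of Socs3 was 0.09. The part of neutrophil RNA in the members' levels was not otherwise tested. The study gated CDPs as lineage-negative, with a cocktail whose antibodies its methods do not list.

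**Figure D4:**
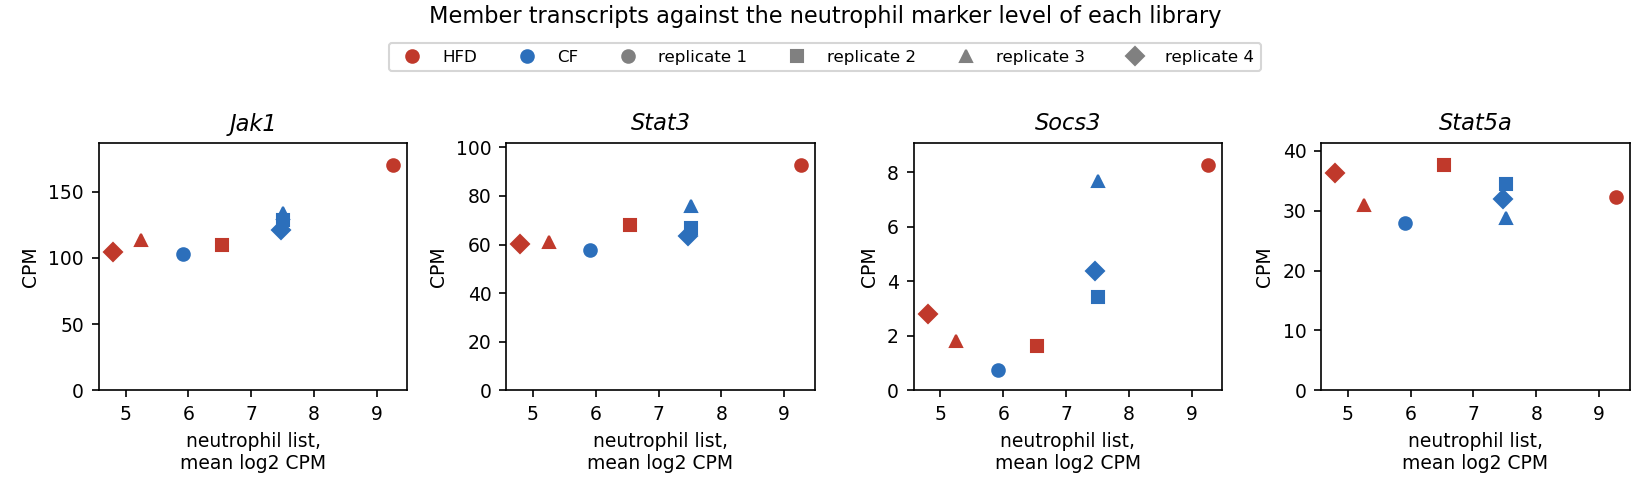
CPM of Jak1, Stat3, Socs3 and Stat5a (vertical axes, from 0) against the mean log2 CPM of 15 neutrophil markers in the same library, HFD in red and CF in blue with a marker shape per replicate number. HFD replicate 1 is farthest to the right and highest for Jak1 (169.8 CPM), Stat3 (92.6 CPM) and Socs3 (8.25 CPM), and Stat5a shows no such order.

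Immediate early genes were also uneven among the HFD libraries. The 15 tested ones, which respond within minutes to stimulation and to cell dissociation, all had estimates below 0, with a median log2 fold change of −0.87. Of these, 0 were called and 4 had an unadjusted p under 0.05 (edgeR, against 5.34% of all genes and 1.67% of protein-coding genes lower). Their summed level was 949.6, 292, 303 and 241 CPM in HFD and 629.9, 859.8, 971 and 738 CPM in CF, so that HFD replicate 1 was above the other HFD libraries, as it was for Socs3. Zfp36 and Btg2, the most abundant of them, were at 161 and 115 CPM in HFD replicate 1 and at 30.6 to 42.2 and 29.6 to 32.2 CPM in the other HFD libraries. The Pearson r of a member with the mean log2 level of this list, over the 8 libraries, was 0.69 for Jak1, 0.56 for Cish, 0.55 for Stat3 and 0.53 for Socs3. For the deviations from the diet means it was 0.97 for Jak1, 0.94 for Stat3, 0.68 for Socs3 and 0.32 for Cish. The part of handling in these levels was not tested.

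Ratios of members within a library do not depend on scaling between libraries, and 7 were compared by exact two-sided permutation tests over the 70 ways to draw 4 of 8 libraries. Socs2 over the sum of Stat5a and Stat5b was 0.758%, 0.387%, 0.382% and 0.635% in HFD and 2.38%, 1.30%, 1.82% and 1.30% in CF. The diets did not overlap, and the difference of the mean log2 ratio was −1.67 (exact p = 0.029, the smallest that 4 against 4 libraries can give, adjusted p = 0.20 over the 7 ratios). Cish over the same sum had a difference of −0.82 (exact p = 0.14, adjusted p = 0.50), with CF replicate 1 at 0.880% inside the HFD range of 0.516% to 1.24%. Stat5a over Stat5b ran from 47.6% to 62.6% in HFD and from 44.3% to 69.4% in CF, with a difference of −0.07 (exact p = 0.77, adjusted p = 0.86). The remaining 4 ratios (Socs3 over Stat3, Socs3 over Cish, Jak2 over Jak1 and Jak3 over Jak1) overlapped between the diets, with differences of −0.16, 0.53, 0.12 and −0.05 and an adjusted exact p of 0.86 each.

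Among the other JAK, STAT and SOCS genes none was called. Of the 5 JAK and STAT genes outside the 10, 3 had estimates above 0 and 2 below. Of the latter, 1 had an unadjusted p under 0.05 (edgeR, against 5.34% of all genes lower). That gene was Tyk2, the kinase of interferon and interleukin receptors. It had 30.3, 31.6, 28.8 and 30.8 CPM in HFD and 37.3, 37.9, 33.6 and 36.4 CPM in CF. The groups did not overlap, and the log2 fold change was −0.26 (standard error 0.09, edgeR adjusted p = 0.34), which shrank to −0.06 with library size alone as scaling, a scaling that moved the median of all genes from 0.05 to 0.25. Stat4, the factor of interleukin responses in lymphocytes, had a log2 fold change of 0.33 (adjusted p = 0.77). The 4 other SOCS genes (Socs4, Socs5, Socs6 and Socs7) all had estimates above 0 with a median of 0.12, and the 2 with the lowest p were Socs4 (log2 fold change 0.11, adjusted p = 0.83) and Socs6 (0.13, adjusted p = 0.87).

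Upstream of the JAKs, 30 of 38 listed receptor chains were tested, 17 with estimates above 0 and 13 below, 0 called. At an unadjusted p under 0.05 were 4 above and 1 below, where all genes gave 3.22% and 5.34%. Lifr, the chain that binds leukaemia inhibitory factor beside gp130, had 44.3, 91.9, 53.7 and 96.9 CPM in HFD and 38.5, 41.8, 42.1 and 37.6 CPM in CF, which did not overlap (0.84 on the log2 scale with a standard error of 0.25, edgeR adjusted p = 0.23). Its adjusted p was 0.042 without HFD replicate 1 and 0.048 by DESeq2. Csf2rb2, the mouse-specific beta chain of the interleukin 3 receptor, had 39.9, 68.7, 43.0 and 58.1 CPM in HFD and 29.5, 38.2, 39.3 and 30.3 CPM in CF, which did not overlap (0.61 on the log2 scale with a standard error of 0.19, edgeR adjusted p = 0.29). Of 29 listed ligands 5 were in the table and 4 were tested, 1 above 0 and 3 below, 0 called, with Clcf1 at −0.23 (adjusted p = 0.88) and Il15 at −0.30 (adjusted p = 0.94). Over the settings Clcf1 ran from −0.41 without HFD replicate 3 to −0.054 with library size alone. Il15 was at −1.01 without HFD replicate 1 (edgeR, unadjusted p = 0.016, adjusted p = 0.21) and at −0.061 without HFD replicate 4.

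Beside and below the JAKs the lists were likewise without calls. Of 15 other inhibitors, 8 were above 0 and 7 below, with Sh2b3, the adaptor that restrains JAK2, at −0.33 (edgeR adjusted p = 0.45) and Ptpn6, a phosphatase that acts on JAKs, at 0.24 (adjusted p = 0.72). The list of genes around SOCS box ubiquitin ligases, which holds both Cul2 and Cul5, had 7 tested, 6 above and 1 below. Eloc was at 0.23, Cul2 at 0.22 and Cul5 at 0.021 (edgeR adjusted p = 0.77 at the lowest). Without HFD replicate 4, Eloc was at 0.082 and Cul2 at 0.12. The 12 adaptors and neighbouring kinases were 7 above and 5 below, with Gab2 at −0.23 and Src at 0.80 (adjusted p = 0.77 at the lowest), which ran from 0.39 without HFD replicate 1 to 1.48 without CF replicate 1.

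Target genes of STAT5 and STAT3 gave no call in the reported fit either. Of 14 tested STAT5 targets outside the 10, 9 were above 0 and 5 below, with a median of 0.08. Pim1, a survival kinase, had 56.4, 46.1, 48.0 and 62.6 CPM in HFD and 34.0, 36.1, 46.4 and 38.3 CPM in CF, overlapping by one library, and its log2 fold change was 0.46 (standard error 0.14, edgeR adjusted p = 0.26). Ccnd3, a cyclin of the G1 phase, had 120.4, 78.2, 33.2 and 32.4 CPM in HFD and 26.6 to 34.3 in CF, where the difference rested on HFD replicates 1 and 2 (log2 fold change 1.12, edgeR adjusted p = 0.43). Without HFD replicate 1 its estimate was 0.66 (adjusted p = 0.37), and with the neutrophil covariate it was called at 1.15 (adjusted p = 0.0074). Of 16 tested STAT3 targets, which share Pim1, Mcl1 and Bcl6 with the former list, 5 were above 0 and 11 below, with a median of −0.15. Id2, a regulator of DC lineage choice, was lower without overlap at 26.5 ± 4.71 CPM in HFD and 36.1 ± 5.68 CPM in CF (SD, n = 4, log2 fold change −0.45, edgeR adjusted p = 0.42). Id2 is also 1 of the 12 conventional DC markers, of which 11 had estimates below 0, with a median of −0.65 and 0 called. Of these markers, 4 were lower without overlap, against 3.58% of all genes and 0.951% of protein-coding genes. The summed level of the 12 markers was 279 to 669 CPM in HFD and 697 to 1243 CPM in CF. They were led by Cd74 and H2-Aa, and none was at 0 in any library. All 10 plasmacytoid DC markers, led by Irf8 and Runx2, had estimates above 0 (median 0.79, 0 called), with summed levels of 605 to 1484 CPM in HFD and 824 to 902 CPM in CF. The part of DC content in the level of Id2 was not tested.

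**Figure D5:**
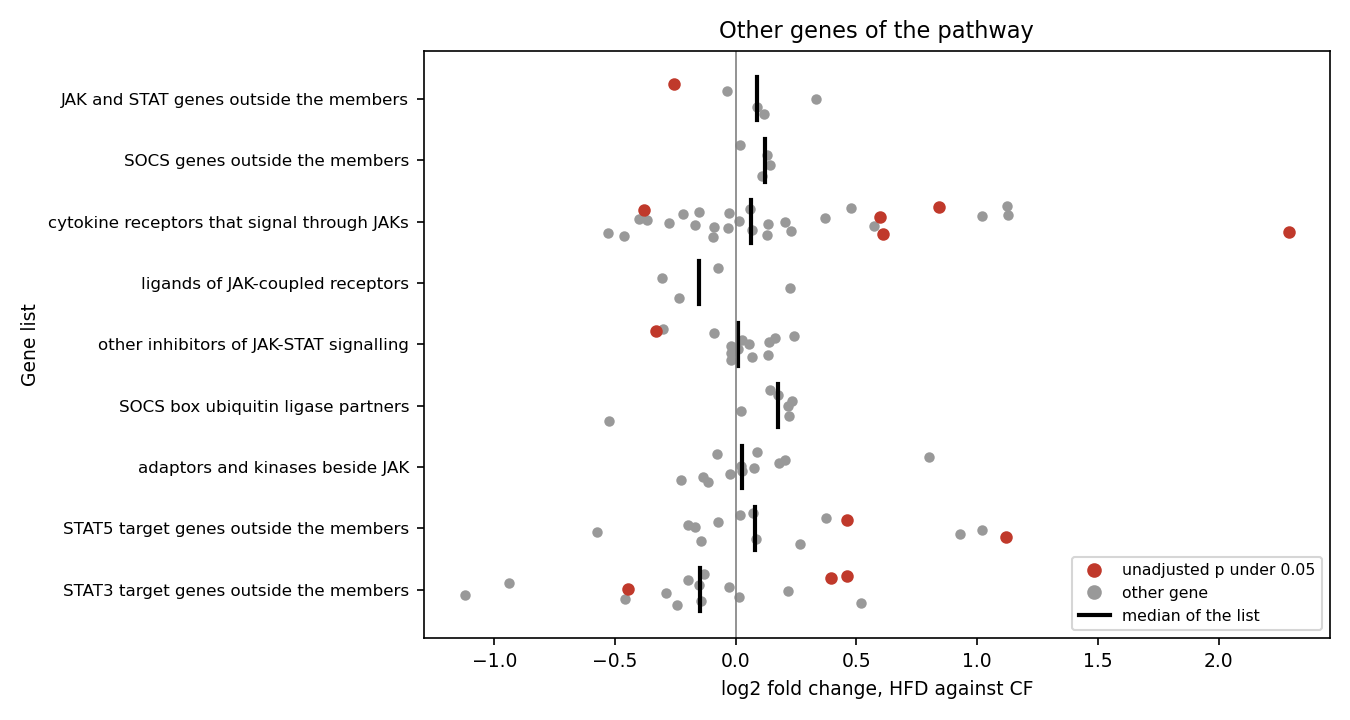
Log2 fold change of HFD against CF for every tested gene of the pathway lists described, with genes at an unadjusted p under 0.05 in red and a bar at the median of each list. The medians lie between −0.15 for ligands and for STAT3 targets and 0.18 for the list around SOCS box ligases, and no gene passed the adjusted threshold.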

How the data were processed

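RNA of sorted CDPs (PicoPure extraction, NuGEN Ovation Solo libraries with rRNA depletion) was sequenced by the authors, who aligned reads with HISAT2 to GRCm38, kept uniquely mapped pairs and summarised GENCODE genes with StringTie. Tool versions are not given in the sources used here. The deposited table holds raw counts per gene without normalization, whose precision is set by counts as low as 12 for Socs2 and as high as 5291 for Jak1. Columns were matched to replicates by sample number.

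The diets were compared with edgeR 4.0.16 in R 4.3.3 (filterByExpr, TMM, robust quasi-likelihood fit, diet as the only term, Benjamini-Hochberg over 15837 genes, threshold 0.05). Log2 CPM used a prior count of 2. Standard errors are the estimate over the square root of its F statistic. Of 16119 identifiers, 16067 matched GENCODE vM21, used for names, coordinates (GRCm38) and exon lengths. Alternatives were RLE factors, library size alone, protein-coding genes alone, DESeq2 1.42.0, limma 3.58.1 voom with and without sample quality weights, no filter, 1 CPM in 4 libraries, the replicate block, a neutrophil covariate, and leaving out each library or HFD 1 and CF 1. They were also run for the pathway genes named, which was decided after seeing the data. The fit was tested on simulated data. Figures used Python 3.11.15 and matplotlib 3.10.9.

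The members, lists and tests were chosen with earlier results of these data known. Named are all 10 members, the 2 genes with the lowest p of each pathway list, the 2 most abundant markers of a list that moves with a member, and the 5 genes most like the member with the lowest p. Flt3, Csf1r, Cd34, Kit, Ly6a, Fcgr3, Cul5, Socs5, Socs7, Mcl1, Bcl6 and the overlapping or sequence-sharing genes were named besides. A further list was tested and is not reported here.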

Additional observations from a re-analysis of the deposited data

Results flagged for a closer look

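Jak1 in HFD replicate 1 stood far from the other libraries of its diet. It had 169.8 CPM there and 104 to 113 CPM in the 3 others, a gap of 0.862 of the whole range, which is past Dixon's 95% limit for 4 values. It was 1 of 34 groups of 4 libraries examined in this way, and chance alone gives about 1 in 20. The same library had the highest neutrophil and erythroid marker levels, whose part in the Jak1 value was not tested.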

How the results depend on the processing

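Counts per library of 12 to 84 for Socs2 and 14 to 65 for Socs1 and Cish limit what can be seen in these genes. Under 19 alternatives, Socs2, Cish, Stat5a, Stat5b and Jak2 kept their direction wherever they were fitted, but not their size. Jak2 was at 0.018 and Cish at −0.40 without HFD replicate 2, Stat5a at 0.085 without HFD replicate 4, and Stat5b at 0.15 without CF replicate 4. The cause of the changes below was not tested.

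The genes called lower, 67 as reported, were 503 with DESeq2, 260 with voom quality weights, 566 with the neutrophil covariate, 350 without HFD 1 and CF 1, 0 with protein-coding genes alone, and 0 to 166 leaving out single libraries. Those called higher, 0 as reported, were 10 with library size alone, 64 with DESeq2, 22 with voom quality weights, 105 with the covariate, 38 without HFD 1 and CF 1, and 0 to 34 leaving out single libraries. DESeq2 called 1 member, Socs2. Jak3 was at 0.17 with library size alone, 0.061 with voom quality weights and 0.048 without HFD 1 and CF 1, Jak1 at −0.011 with protein-coding genes alone, −0.14 with quality weights and −0.23 without both, Stat3 at −0.070 and −0.13 in the last 2, and Socs3 at 0.091 with the covariate.

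Leaving out single libraries, estimates ran from −0.26 to 0.51 for Socs1, −0.96 to 0.34 for Socs3, −0.067 to 0.17 for Stat3, −0.16 to 0.086 for Jak1 and −0.26 to 0.10 for Jak3. The log2 ratios ran from −1.13 to −0.52 for Cish over STAT5 (exact p = 0.029 without CF replicate 1), −0.20 to 0.017 for Stat5a over Stat5b, −0.78 to 0.21 for Socs3 over Stat3, −0.052 to 0.31 for Jak2 over Jak1 and −0.29 to 0.20 for Jak3 over Jak1. For the Cish ratio, CF replicate 1 was the only CF library inside the HFD range, so leaving it out fixed that p at the smallest possible. Socs1 could not be fitted at 1 CPM in 4 libraries, which it did not reach.

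With the replicate number as a block, 0 genes were called, Socs2 was at −1.46 (edgeR adjusted p = 0.59) and its ratio at −1.67 (exact p = 0.125 by sign flips, the smallest that 4 pairs give). Libraries of the same number did not deviate together (r −0.44 to −0.078). The deviations also hold differences in cell content, so these r cannot show whether a litter, day or batch was shared.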
